A study of Mus musculus with 6 samples.

Results

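Introns shorter than 200 bases made up 1149 of the 2796 intron retention events that the splicing table of this series lists in CD4+ T cells of mice. An intron was taken when the distance between the end of the upstream exon and the start of the downstream exon was under 200 bases, a rule that uses genome positions and no measured value. The 1149 events are 1149 distinct introns of 848 genes, and 139 of them share a splice site with another short intron. Their median length was 99 bases, with quartiles of 82 and 135 bases. The events are those the authors' splicing software lists, not all short introns of the genome.

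The cells were CD4+CD8- T cells, sorted from pooled spleen and peripheral lymph nodes. The 3 cKO libraries came from U5-52Kf/f CD4-Cretg mice, in which the CD4 promoter drives Cre recombinase from the double positive stage of thymocytes on and Cre cuts the floxed Cd2bp2 gene, which encodes CD2BP2/U5-52K. Of the 3 Control libraries, a pair came from U5-52Kwt/f CD4-Cretg mice, which keep 1 intact allele and carry Cre, and 1 came from a U5-52Kf/f CD4-Cre- mouse. The labels state no ages. The comparison asks whether the loss of a factor of U5 snRNP assembly changes how often introns of this length stay in the RNA.

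Most introns of mammals are far longer than their exons, and such exons are recognised as units across the exon. Very short introns can be recognised as units themselves, since their ends lie close enough for the complexes on both splice sites to pair across the intron. The U5 snRNP enters with U4 and U6 as the tri-snRNP and holds the exon ends while both steps of splicing take place. A retained intron in the coding region often brings a premature stop codon or keeps the RNA in the nucleus. Short introns rich in G and C with weak splice sites are the usual class of retained introns in T cells and other cells of mammals.

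Retention is given as PSI, the percentage that the form with the intron makes up of both forms of an event. Where events share a splice site, PSI need not be the share of RNA that keeps the whole intron. It was computed per library from reads of the form with the intron and of the spliced form, each divided by the effective length of that form. The splicing table holds 3 values per condition without library names, which are called replicates 1 to 3 here in the order of the table and cannot be assigned to the named libraries of the expression table. The short introns drew 849832, 957624 and 1042876 reads in cKO replicates 1 to 3, against 777678, 957846 and 749373 in Control replicates 1 to 3. Of these reads, 122137, 150710 and 164216 in cKO and 112963, 138027 and 98050 in Control belonged to the form with the intron. A test was made where both conditions had a mean of at least 20 reads, which held for 953 short introns and 1253 longer ones, and the other 196 short introns were not tested. The tested short introns had a median of 256 reads per library, of which 11.7 were of the form with the intron, so that a change of a few points in a weakly retained intron rests on few reads. The design text names 3 mice per condition. The p-values reflect only how these 6 libraries vary.

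The deletion was visible in the expression table, where Cd2bp2 had 884, 874 and 738 normalized counts in the cKO libraries, against 2624, 2602 and 2612 in the Control libraries. Markers of CD4+ T cells summed to between 348276 and 376798 in cKO and between 363413 and 418288 in Control, with 6 of 7 markers found. Markers of B cells summed to between 3055 and 5761 in cKO and between 7060 and 10137 in Control, and all 5 of them were found in each library. The 5 myeloid markers summed to 14915 in the cKO library KO_7.8, to 2787 and 3584 in the other cKO libraries, and to between 1821 and 3419 in Control. The part of these other cells in the values below was not tested, since the splicing values carry no library names.

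Short introns can be shown whole. The set below holds 5 of the 6 introns with an FDR under 0.01 (Med12, Mdp1, Hnrnpm, Ppdpf and Slc44a2, while that of Thoc1 is given by its position only), the intron of Tmem191c with the lowest FDR in that gene, and an intron of Irf7 that was lower in cKO. Capitals mark the GT that opens each intron and the AG that ends it, and in Irf7 also the AG of a shorter intron that opens at the same base. Each is written 5′ to 3′ on the strand of its gene, with positions in GRCm38, read from GENCODE transcripts that keep the intron.
Med12, chrX:101294013-101294087, plus strand: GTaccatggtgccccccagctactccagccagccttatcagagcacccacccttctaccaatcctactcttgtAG
Mdp1, chr14:55660099-55660167, minus strand: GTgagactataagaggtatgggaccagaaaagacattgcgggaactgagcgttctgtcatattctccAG
Hnrnpm, chr17:33666530-33666646, minus strand: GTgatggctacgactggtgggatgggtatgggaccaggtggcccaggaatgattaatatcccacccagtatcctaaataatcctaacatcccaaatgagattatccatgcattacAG
Ppdpf, chr2:181187737-181187808, plus strand: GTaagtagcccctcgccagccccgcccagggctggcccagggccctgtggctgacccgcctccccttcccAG
Slc44a2, chr9:21342506-21342597, plus strand: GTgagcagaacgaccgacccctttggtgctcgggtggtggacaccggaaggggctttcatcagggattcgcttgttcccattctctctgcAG
Tmem191c, chr16:17277402-17277527, plus strand: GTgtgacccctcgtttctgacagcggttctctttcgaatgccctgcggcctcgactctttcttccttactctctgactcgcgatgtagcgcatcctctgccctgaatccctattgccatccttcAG
Irf7, chr7:141264560-141264724, minus strand: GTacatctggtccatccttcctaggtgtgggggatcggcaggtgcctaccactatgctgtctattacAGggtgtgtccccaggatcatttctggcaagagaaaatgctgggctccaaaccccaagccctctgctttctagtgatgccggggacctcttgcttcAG
The 7 introns differ widely in base composition, from 46.2% G and C in Hnrnpm and 46.4% in Mdp1 to 75% in Ppdpf.

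Introns of 3 genes rose in cKO CD4+ T cells, those of Thoc1, Med12 and Mdp1, and no short intron fell, when an FDR under 0.01 and a difference of at least 10 points in PSI were required. The 3 higher calls stood against 0.136% of all 2206 tested events called higher, and the 0 lower calls against 0.0453% called lower. All 3 higher calls among the 2206 events were of short introns, and the 1 lower call was of a longer intron. At an FDR under 0.05, with no minimum difference, 11 short introns were higher (1.15% of the 953 tested, against 0.544% of all tested events) and 1 was lower (0.105%, against 0.0907% of all tested events). The FDR comes from a quasi-binomial model of the reads of both forms with a dispersion moderated by limma. It was adjusted by Benjamini-Hochberg over all tested events.

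Thoc1 encodes a subunit of the THO complex, which couples transcription to the export of mRNA. The intron that rose is intron 2 of 20, has 83 bases and lies on chromosome 18 from 9959172 to 9959254. Its PSI was 23.8%, 23.9% and 17.8% in cKO replicates 1 to 3, against 8.89%, 7.04% and 9.90% in Control replicates 1 to 3. Every cKO library therefore lay well above every Control library. Behind these values stood 152, 230 and 151 reads of the form with the intron in cKO and 69, 59 and 58 in Control. The difference was 13.2 points (SE 2.17, FDR 0.000846). It stayed under an FDR of 0.01 without any 1 of the 6 libraries, while edgeR gave an FDR of 0.0442. Read through, the intron shifts the frame and holds a stop codon in the frame of the upstream exon. The other short introns of Thoc1 did not pass the test, intron 13 with 197 bases at a difference of 1.73 points and intron 14 with 87 bases at -0.75 points. The normalized count of Thoc1 was 6934 ± 446 in cKO and 6504 ± 141 in Control (SD, n = 3 each).

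Med12 encodes a subunit of the kinase module of the Mediator complex, through which transcription factors act on RNA polymerase II. Its intron 41 of 45, of 75 bases, was kept in most RNA of both conditions. PSI was 88.2%, 79.9% and 87.0% in cKO replicates 1 to 3 and 60.2%, 63.3% and 61.3% in Control replicates 1 to 3. Every cKO library lay above every Control library. The spliced form had 15, 45 and 23 reads in cKO and 77, 72 and 52 in Control. The difference was 23.4 points (SE 2.76, FDR 0.00483). The intron length is a multiple of 3 and the sequence printed above holds no stop codon in frame, and a protein coding transcript of the annotation keeps it. The FDR was 0.0117 without Control replicate 1, 0.0118 without Control replicate 3, 0.0516 without cKO replicate 3 and 0.0882 by edgeR, so the call depends on these libraries and on the tool.

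Mdp1 encodes a magnesium-dependent phosphatase. Its intron 2 of 5, of 69 bases, had a PSI of 28.3%, 26.0% and 20.8% in cKO replicates 1 to 3, against 12.9%, 11.07% and 14.0% in Control replicates 1 to 3. The conditions did not overlap, with means of 25.1% ± 3.83 in cKO and 12.6% ± 1.47 in Control (SD, n = 3 each). The difference was 12.4 points (SE 2.37, FDR 0.00528). It had an FDR of 0.0236 without Control replicate 2, of 0.0300 without cKO replicate 2 and of 0.192 by edgeR. The intron keeps the frame but holds a stop codon. The normalized count of Mdp1 was 3848 ± 333 in cKO and 3901 ± 460 in Control (SD, n = 3 each).

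**Figure D1:**
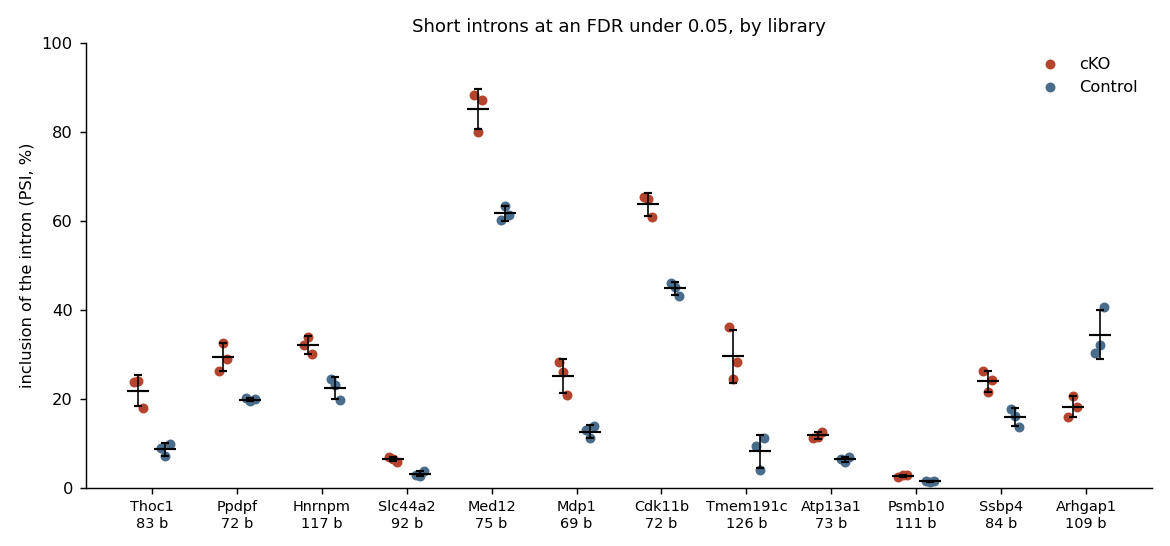
PSI in percent of the 12 introns under 200 bases with an FDR under 0.05, with the length in bases (b) under each gene. Each point is 1 library, cKO left and Control right, the bar is the mean and the whiskers are 1 SD (n = 3). The cKO libraries lie above the Control libraries in 11 introns and below them in that of Arhgap1.

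A further 3 introns had an FDR under 0.01 with a difference under 10 points. Ppdpf encodes a factor named for the proliferation of pancreatic progenitors, and its 72-base intron 2 of 4 was the most deeply covered of the changed introns. PSI was 26.3%, 32.5% and 29.0% in cKO replicates 1 to 3 and 20.1%, 19.5% and 19.9% in Control replicates 1 to 3, so that the Control libraries lay within 1 point of each other. The difference was 9.47 points (SE 1.83, FDR 0.000846). Without cKO replicate 1 it came to 10.97 points and met the call. Hnrnpm encodes an hnRNP protein that binds introns and regulates splicing. Its 117-base intron 6 of 16 had a PSI of 32.1%, 34.0% and 30.0% in cKO replicates 1 to 3, against 24.5%, 23.0% and 19.8% in Control replicates 1 to 3. The difference was 9.59 points (SE 1.79, FDR 0.00122), and it met the call at 10.6 points without Control replicate 1 or without cKO replicate 3. By edgeR the FDR was 0.225 for Ppdpf and 0.305 for Hnrnpm. Like that of Med12, this intron keeps the frame, holds no stop codon and is kept in a protein coding transcript of the annotation.

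Slc44a2, which encodes a choline transporter-like protein, had weaker retention. The 92-base intron 6 of 21 had a PSI of 6.88%, 6.53% and 5.88% in cKO replicates 1 to 3 and of 2.94%, 2.71% and 3.86% in Control replicates 1 to 3. All cKO libraries were higher, by 3.26 points on average (SE 0.46, FDR 0.00483, and 0.111 by edgeR). Intron 8 of the same gene, of 97 bases, had 7.48%, 10.1% and 7.90% in cKO, against 8.61%, 6.74% and 5.18% in Control, with overlapping libraries and an FDR of 0.617.

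Among the introns with an FDR from 0.01 to 0.05, those of Cdk11b and Tmem191c differed most. Cdk11b encodes a cyclin-dependent kinase that phosphorylates the splicing and transcription machinery. The 72-base intron, chr4:155625655-155625726, had a PSI of 65.2%, 64.96% and 60.8% in cKO replicates 1 to 3, against 46.0%, 45.2% and 43.2% in Control replicates 1 to 3. The libraries of each condition lay close together and apart from the other, with a difference of 18.9 points (SE 1.67, FDR 0.0146). The FDR was 0.329 by edgeR and 0.0667 without cKO replicate 2. Psmb10, a catalytic subunit of the immunoproteasome, had 2.33%, 2.80% and 2.75% in cKO and 1.49%, 1.22% and 1.54% in Control at its 111-base intron 5 (difference 1.21 points, FDR 0.0317). Atp13a1, a transport ATPase of the endoplasmic reticulum, had 11.2%, 11.48% and 12.6% in cKO and 6.48%, 5.73% and 6.83% in Control at its 73-base intron 6 (difference 5.44 points, FDR 0.0317). Ssbp4, which encodes a protein related to single-stranded DNA binding proteins and was named after its values were seen, had 26.1%, 21.5% and 24.2% in cKO, against 17.7%, 16.2% and 13.7% in Control at its 84-base intron 13 (difference 8.06 points, FDR 0.0471). In each of these introns all cKO libraries lay above all Control libraries. Except for Ssbp4, the rule that named them required this, so it adds no evidence. EdgeR gave an FDR of 0.192 for Psmb10, 0.331 for Atp13a1 and 0.463 for Ssbp4.

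The gene Tmem191c, which encodes a transmembrane protein, held 6 tested short introns. Intron 6, of 126 bases, had 36.1%, 24.3% and 28.1% in cKO replicates 1 to 3 and 9.32%, 4.001% and 11.2% in Control replicates 1 to 3 (difference 21.4 points, SE 4.08, FDR 0.0159). Intron 4, of 154 bases, had 24.3%, 45.0% and 46.6% in cKO, against 24.2%, 12.5% and 17.4% in Control, where cKO replicate 1 only just exceeded the highest Control library. Introns 2, 3 and 8 were higher by 13.7, 8.15 and 11.06 points with no overlap of the libraries. Only intron 7, of 76 bases, went the other way, at 0.00%, 0.94% and 0.00% in cKO and 0.41%, 2.19% and 2.05% in Control. Apart from intron 6, their FDRs ranged from 0.143 to 0.786. For intron 6 the FDR was 0.113 by edgeR and 0.178 without cKO replicate 3. Reads were few, with 24, 38 and 47 reads of the form with intron 6 in cKO and 26, 9 and 20 in Control. The normalized count of the gene was 398 ± 75.7 in cKO and 632 ± 90.8 in Control (SD, n = 3 each, log2 fold change -0.67, adjusted p = 0.17 from limma), and introns of 1 gene share their RNA and are not independent.

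**Figure D2:**
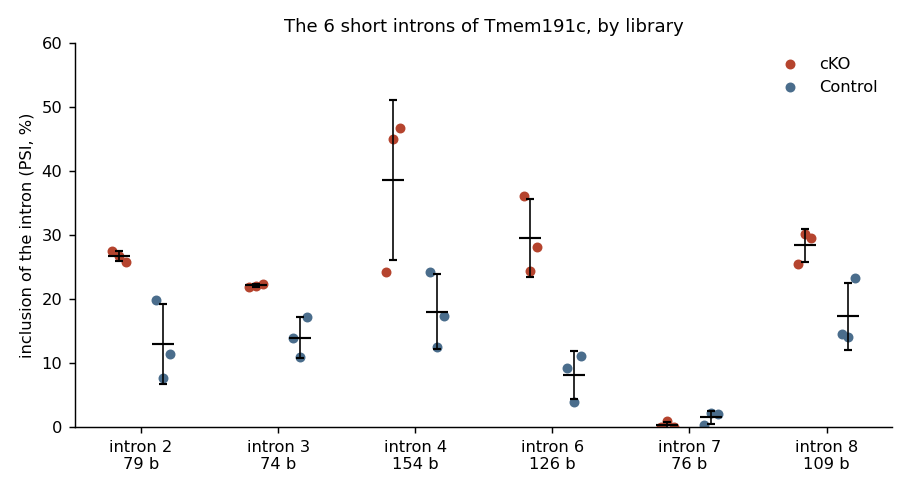
PSI in percent of the 6 tested introns under 200 bases of Tmem191c, in the order of the gene. Points are libraries, cKO left and Control right, bars are means and whiskers 1 SD (n = 3). In introns 2, 3, 4, 6 and 8 each cKO library lies above each Control library, and intron 7 is at 2.19% or less in all libraries.

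The clearest intron with less retention in cKO was in Arhgap1. The 109-base intron, chr2:91651655-91651763, lies in a noncoding transcript of the annotation. Its PSI was 15.9%, 20.6% and 18.2% in cKO replicates 1 to 3 and 30.3%, 32.1% and 40.7% in Control replicates 1 to 3. Every cKO library was lower, by 16.1 points on average (difference -16.1, SE 3.47, FDR 0.0294), which misses the limit of 0.01. The FDR was 0.305 by edgeR and 0.178 without cKO replicate 3. A second short intron of the gene, of 190 bases, had a mean PSI of under 1% in both conditions and a difference of 0.19 points.

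Irf7, the transcription factor that drives type I interferon genes, holds a pair of overlapping short introns that open at the same 5′ splice site. The 165-base form had a PSI of 29.0%, 32.0% and 29.6% in cKO replicates 1 to 3, against 43.1%, 43.2% and 36.1% in Control replicates 1 to 3. All cKO libraries were lower (difference -10.6 points, SE 2.52), with an FDR of 0.117. The 69-base form, which ends at the inner AG, had 7.52%, 17.3% and 13.1% in cKO, against 12.5%, 6.38% and 6.81% in Control. Its difference had the opposite sign, 4.07 points (SE 3.46, FDR 0.646), with overlapping libraries. Reads over the shared bases count toward both events. The normalized count of Irf7 was 5809 ± 550 in cKO and 5982 ± 1350 in Control (SD, n = 3 each).

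The other introns lower in cKO were taken by smallest p only among those whose libraries did not overlap, as were those of Arhgap1 and Irf7. They had an FDR of 0.158 or more. Cnbp, which encodes a zinc finger protein that binds nucleic acids, had the deepest coverage of these. Its 119-base intron had 18.7%, 17.0% and 16.4% in cKO and 19.8%, 19.5% and 20.1% in Control (difference -2.45 points). A 98-base intron inside it that ends at the same base went the other way (difference 0.34 points, FDR 0.483). That intron had 1.70%, 1.95% and 1.73% in cKO and 1.64%, 1.42% and 1.31% in Control. Whether the values of the 119-base intron reflect retention or the use of another splice site was not tested. Safb2, a nuclear scaffold protein that binds RNA, had 6.52%, 5.68% and 6.56% in cKO and 11.51%, 10.2% and 9.16% in Control at its last intron (difference -4.04 points). The 95-base intron of Usp19, a deubiquitinating enzyme, had the most negative difference of all tested short introns, with 53.8%, 47.0% and 44.9% in cKO and 58.4%, 72.4% and 74.0% in Control (difference -19.7 points, FDR 0.53). It had a mean of only 39.7 reads per library. An 86-base intron of Usp19 that opens at the same base and lies inside it had a mean PSI of 0.78% in cKO and 0.38% in Control (difference 0.40 points). Whether the values of the 95-base intron reflect retention or the use of another splice site was not tested. Naxd, Ttc13, Cuta, Ap1g2 and Fermt3 had differences between -9.20 and -0.59 points. The intron of Cuta has 77 bases, and a 109-base intron that opens at the same base had a difference of 1.73 points (FDR 0.658). The most positive difference, 28.3 points in the 104-base intron 4 of Slx1b, a subunit of a structure-specific nuclease, had an SD of 24.96 points in cKO against 1.18 points in Control and an FDR of 0.169. Slx1b was named after its values were seen.

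Across all tested short introns the changes were small and leaned upward. The median difference was 0.15 points, against 0.04 points over all tested events and 0.01 points over the longer introns. Of the 953 introns 582 had a higher mean in cKO, 369 a lower one and 2 an equal one, and 610 differed by less than 1 point. At an unadjusted p under 0.05, 99 short introns of 90 genes were higher (10.4%, against 7.16% of all tested events) and 13 were lower (1.36%, against 1.86% of all tested events). The libraries of the conditions did not overlap in 130 short introns that were higher (13.6%, against 10% of all tested events) and 26 that were lower (2.73%, against 3.31% of all tested events). Without any 1 library, between 63 and 102 short introns were higher at that p and between 11 and 17 were lower. Over all tested events, between 102 and 170 were higher and between 35 and 60 lower in those fits. By edgeR, 78 short introns were higher and 6 lower, against 131 and 35 of all 2206 tested events. A difference of at least 10 points was seen in 26 of the 953 introns that were higher, of which 17 had no overlap. It was seen in 8 that were lower, of which 3 had none. Among all 2206 tested events, 59 were higher and 33 lower by at least 10 points, and overlap among these was not counted.

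**Figure D3:**
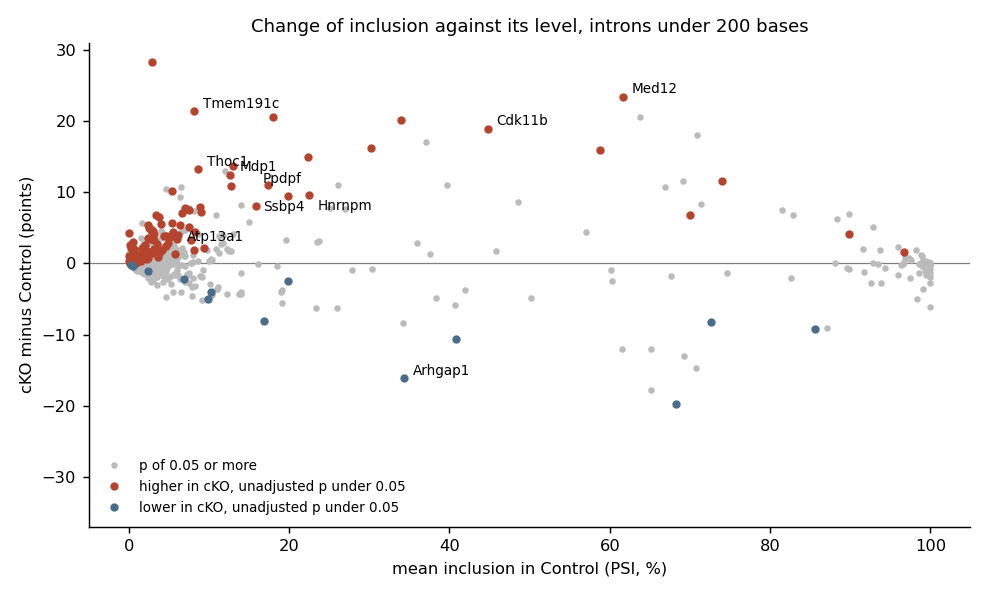
Difference in PSI (cKO minus Control, points) against the mean PSI in Control (percent) for the 953 tested introns under 200 bases. Points in red and blue have an unadjusted p under 0.05 (99 higher and 13 lower in cKO), and genes with an FDR under 0.05 are named where room allows. Most introns lie below 5% PSI in Control, and the named introns of Med12, Tmem191c and Cdk11b have the largest differences at an FDR under 0.05.

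Retention was weak in most of these introns. In Control, 238 of the 953 had a mean PSI of at most 1%, 478 lay above 1% and up to 5%, 131 above 5% and up to 20%, 26 above 20% and up to 50%, and 80 above 50%. At an unadjusted p under 0.05 the share that was higher in cKO was 20.6% for introns above 5% and up to 20%, with 27 higher and 5 lower. It was 10.1% for introns of at most 1%, with 24 higher and 2 lower, and 19.2% for those above 20% and up to 50%, with 5 higher and 2 lower. It was 7.74% for those above 1% and up to 5%, with 37 higher and 1 lower, and 7.5% for those above 50%, with 6 higher and 3 lower. Among longer introns, 3.39% were higher at up to 1%, with 24 higher and 8 lower. Above 1% and up to 5% it was 3.67%, with 11 higher and 10 lower. Above 5% and up to 20% it was 14.5%, with 12 higher and 2 lower. Above 20% and up to 50% it was 17.1%, with 7 higher and 2 lower, and above 50% it was 4.17%, with 5 higher and 6 lower. Of the 80 introns above 50% in Control, 48 are held by a protein coding transcript of the annotation and 24 by one annotated as a retained intron.

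The share of introns that were higher at an unadjusted p under 0.05 differed between the classes of length. In the shortest class, under 40 bases, 0 of 7 introns were higher and 0 lower. The share was 14.0% from 40 to under 80 bases (27 of 193), 11.03% from 80 to under 100 bases (32 of 290), 10.6% from 100 to under 150 bases (30 of 284) and 5.59% from 150 to under 200 bases (10 of 179). Among longer introns it was 5.41% from 200 to under 400 bases, 3.46% from 400 to under 800 bases and 4.90% from 800 bases on. The share that was lower stayed between 1.03% and 3.06% in the classes from 40 bases on. The median number of reads of the form with the intron was between 10.2 and 12.7 per library in the 4 short classes from 40 bases on and between 8.0 and 11.2 in the longer ones. Over both forms, the tested short introns had a median of 256 reads per library and the longer ones 164. The part of read depth in these shares was not tested. The difference between the classes itself was not tested, since introns are not replicates of a condition. Just inside the limit, the 5 tested introns of 198 or 199 bases had a mean PSI between 0.49% and 7.98% in cKO and between 0.38% and 6.97% in Control. Just outside it, the 9 of 200 or 201 bases had between 0.23% and 2.07% in cKO and between 0.38% and 2.61% in Control.

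**Figure D4:**
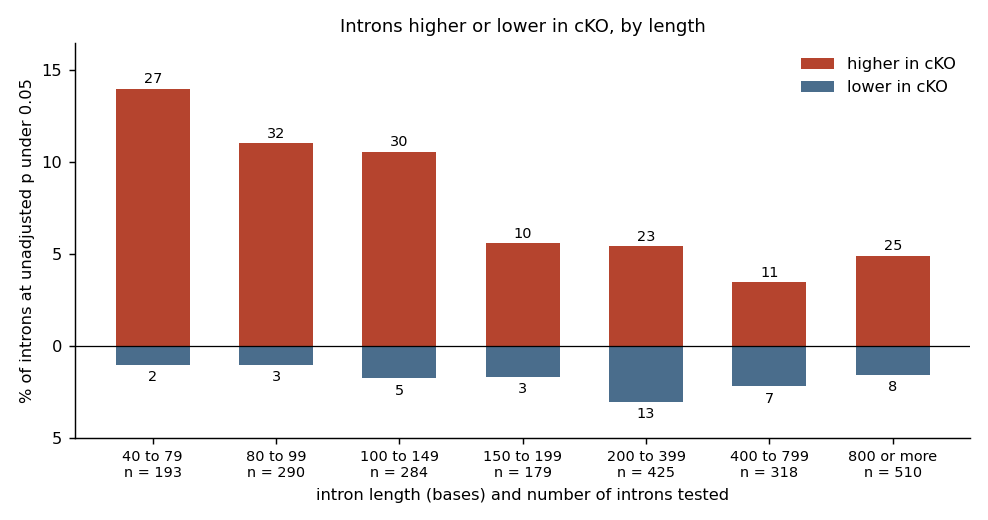
Share of tested introns, in percent, at an unadjusted p under 0.05, by intron length in bases, with those higher in cKO above the line and those lower in cKO below it. Numbers at the bars count the introns and n is the number tested, with the 7 introns under 40 bases not drawn. The bars above the line shorten from 14.0% in the class that starts at 40 bases to 5.59% in that which starts at 150 bases and stay at 5.41% or less beyond.

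Per library, the median PSI of the tested short introns was 2.10%, 2.65% and 2.46% in cKO replicates 1 to 3, against 2.38%, 2.0% and 2.16% in Control replicates 1 to 3. The conditions overlapped, and the difference of the means was 0.22 points (two-sided exact permutation test, p = 0.3, where 0.1 is the smallest p that 3 against 3 libraries allow). The longer introns had lower medians, at 0.65%, 0.84% and 0.76% in cKO and 0.79%, 0.67% and 0.67% in Control. The excess of the short over the long median was 1.45, 1.81 and 1.70 points in cKO and 1.59, 1.33 and 1.49 points in Control (exact permutation test, p = 0.3). A change particular to short introns was therefore not shown at this number of libraries.

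Pooled over all tested short introns, PSI was 9.12%, 9.94% and 9.93% in cKO replicates 1 to 3 and 9.04%, 8.99% and 8.17% in Control replicates 1 to 3. These values did not overlap (exact permutation test, two-sided p = 0.1, which is the lower bound named above). They rested on few introns, as 5 of them, in Actb, Oaz1, Hsp90ab1, Fxyd5 and Rps18, carried 66.0% of the reads per base of the form with the intron. Without these the pooled PSI was 3.16%, 3.84% and 3.56% in cKO and 3.405%, 3.18% and 2.88% in Control, which overlapped (exact permutation test, p = 0.3). The intron of Actb, which encodes a cytoskeletal actin, alone gave 40.2%. It has 150 bases and opens with GC, and its PSI was between 98.5% and 98.7% in all 6 libraries.

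**Figure D5:**
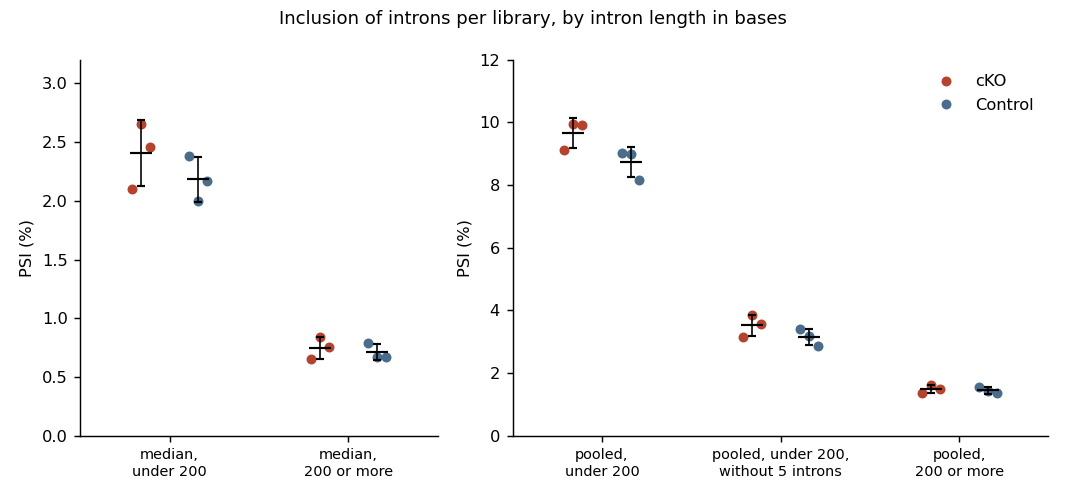
Median PSI (left) and pooled PSI (right) per library in percent, for tested introns under 200 bases and of 200 bases or more, and for the short introns without the 5 that carry most of the reads. Points are libraries, cKO left and Control right, bars are means and whiskers 1 SD (n = 3). The conditions overlap in each summary but the pooled PSI of the short introns, where all cKO libraries lie above all Control libraries.

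The sequences of the short introns were of the usual kind. Of the 1134 introns of at least 40 bases with a sequence, 1119 open with GT and end with AG and 13 open with GC and end with AG, and 1604 of 1641 longer introns are of the GT and AG kind. The AT and AC ends found in some introns of the minor spliceosome occurred in 0 short introns and in 5 longer ones. Tested short introns of at least 40 bases had a median of 56.2% G and C, against 48.1% in the longer introns. The 9 bases of the 5′ splice site were compared with CAG or AAG at the end of the exon and GTAAGT or GTGAGT in the intron, on the strand of the gene. The median was 7 matching bases in short and in longer introns, and 8 or 9 bases matched in 25.1% of the short and 25.3% of the longer ones. In 4 equal classes of rising G and C content, 26, 24, 26 and 21 short introns were higher at an unadjusted p under 0.05. The share over all tested events was 7.16%. By match of the 5′ splice site, 4.17% of those with at most 5 matching bases were higher, 11.4% of those with 6, 9.32% of those with 7 and 13.1% of those with 8 or 9.

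Most short introns lay in coding sequence, 1018 of the 1149. Of the tested coding introns, 89 keep the frame with no stop codon, and of these 16 were higher and 2 lower in cKO at an unadjusted p under 0.05. Another 199 keep the frame and hold a stop codon, with 25 higher and 2 lower. Of those that shift the frame, 412 hold a stop codon, with 32 higher and 8 lower, and 162 hold none, with 13 higher and 0 lower. Among first introns 0 of 27 were higher and 0 lower, and among last introns 3 of 43 were higher and 1 lower. The shares over all tested events at that p were 7.16% higher and 1.86% lower.

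Genes of splicing and RNA export held 25 short introns in 15 genes, of which 22 were tested. Of these 1 was called, that of Thoc1, and 6 were higher and 0 lower at an unadjusted p under 0.05, where 7.16% of all tested events were higher and 1.86% lower. The median difference of the group was 0.11 points, against 0.04 points over all tested events. Beside Hnrnpm, the members with the most reads were in Hnrnpk, Rbm5 and Nxf1. Rbm5, a splicing regulator of apoptosis genes, had 1.62%, 1.70% and 2.11% in cKO and 0.98%, 0.75% and 0.40% in Control at its intron 13, with no overlap and an FDR of 0.161. Hnrnpk, another hnRNP protein, had 1.19%, 1.04% and 1.71% in cKO and 1.03%, 1.28% and 1.43% in Control, and Nxf1, the mRNA export receptor, had 2.85%, 3.73% and 3.69% in cKO and 2.15%, 2.97% and 2.48% in Control, each with overlap.

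Genes of translation held 28 short introns in 23 genes, all tested, with a median difference of 0.01 points. None was called. At an unadjusted p under 0.05, 3 were higher and 0 lower, where 7.16% of all tested events were higher and 1.86% lower. The introns with the most reads in this group were spliced nearly completely. Eef1a1, which encodes the elongation factor that carries tRNA to the ribosome, had a PSI of 0.03%, 0.03% and 0.02% in cKO and 0.02%, 0.02% and 0.03% in Control. Rpl13a, a protein of the large ribosomal subunit, had 0.11%, 0.18% and 0.17% in cKO and 0.11%, 0.06% and 0.11% in Control, and Rpl13 had 0.99%, 0.94% and 0.91% in cKO and 0.89%, 0.83% and 0.86% in Control. Rps18, of the small subunit, had 1.08%, 1.01% and 0.91% in cKO and 1.02%, 0.95% and 0.95% in Control at its 90-base intron. A 109-base event of Rps18 that opens at the same base had a mean of 96.6% in both conditions. Differences of under 0.1 point in the introns with most reads had FDRs from 0.358 to 0.949.

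The T cell receptor and costimulation genes held 9 short introns in 7 genes, of which 8 were tested and 0 called. At an unadjusted p under 0.05, where 7.16% of all tested events were higher and 1.86% lower, 1 intron was higher and 0 were lower. That intron, of 135 bases in Cd5, an inhibitory receptor of T cells, was kept in nearly all RNA, at 98.5%, 98.1% and 97.95% in cKO and 95.8%, 96.8% and 97.4% in Control (FDR 0.338). Vav1, an exchange factor downstream of the receptor, had 92.5%, 95.7% and 91.9% in cKO and 94.2%, 93.9% and 92.5% in Control at its first intron. The intron of Tnfrsf18, the costimulatory receptor GITR, had 0.64%, 0.58% and 0.59% in cKO and 0.39%, 0.57% and 0.32% in Control, and that of Ptpn6, a phosphatase that restrains receptor signals, had 0.45%, 0.98% and 0.83% in cKO and 0.68%, 0.64% and 0.69% in Control. Of 6 short introns in genes of p53 signalling and apoptosis, 4 were tested, with 0 higher and 0 lower at that p. Bcl2l11, which encodes the proapoptotic protein BIM, had 25.1%, 29.9% and 25.8% in cKO and 15.6%, 43.1% and 24.9% in Control, where the Control libraries spread widely. Diablo, an antagonist of inhibitors of apoptosis, had 2.82%, 2.17% and 2.97% in cKO and 2.30%, 1.67% and 2.29% in Control.

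Of the 848 genes with a short intron, 801 could be tested by limma on a log2(normalized count + 1) scale, which understates changes of genes with low counts. With the adjusted p below 0.05 and a log2 fold change of more than 1 in size, 3 host genes were higher in cKO, against 0.445% of all 11001 tested genes, and 0 were lower, against 0.118% of all tested genes. DESeq2 on the whole reads called 10 host genes and edgeR called 3. At that adjusted p from limma with no limit on the fold change, 3 host genes were higher, against 0.673% of all tested genes, and 3 were lower, against 0.300%. In bulk RNA, more cells with a transcript and more RNA per cell cannot be told apart. Psrc1, which encodes a microtubule protein of the mitotic spindle, had 1091, 850 and 917 normalized counts in the cKO libraries, against 95.9, 81.7 and 74.3 in the Control libraries (log2 fold change 3.49, adjusted p = 0.00137). Plk2, a polo-like kinase and target of p53, had 907, 846 and 935 in cKO and 309, 304 and 277 in Control (log2 fold change 1.59, adjusted p = 0.00354). Gadd45g, a stress response gene, had 2392, 2122 and 1664 in cKO and 740, 945 and 837 in Control (log2 fold change 1.28, adjusted p = 0.0237). The calls of Psrc1 and Plk2 held without any 1 library, whereas that of Gadd45g was lost without any 1 of the Control libraries or without KO_9.10. Without KO_7.8, Fanci, a gene of DNA crosslink repair, was called as well.

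The short introns of Psrc1 and Plk2 had too few reads to be tested, while that of Gadd45g was tested. That of Psrc1 had 1, 10 and 14 reads of the form with the intron beside 42, 47 and 40 spliced reads in cKO, and 1, 0 and 0 beside 6, 8 and 7 in Control. That of Plk2 had 1, 4 and 1 beside 46, 66 and 40 in cKO and 0 in each Control library beside 20, 17 and 11, which allows a PSI of up to 6.05%, 7.04% and 10.5% there by a limit of 3 counts per library. Gadd45g had 0.68%, 2.61% and 0.21% in cKO, against 0.61%, 0.71% and 1.25% in Control, with an FDR of 0.918. Over 926 tested short introns with a tested host, the Spearman correlation between the difference in PSI and the log2 fold change of the host was -0.04. It is across introns, which share libraries and in part genes, and describes these data only.

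Short introns were also listed in Vps37a and Cln3, genes that the study follows for their exons. Vps37a, a subunit of the ESCRT-I sorting complex, had a PSI of 3.02%, 1.83% and 0.68% in cKO and 0.68%, 0.48% and 1.202% in Control at its 82-base intron. Cln3, a membrane protein of lysosomes, had 15.5%, 4.63% and 4.95% in cKO and 14.2%, 5.08% and 8.34% in Control at its 85-base intron 14. The libraries overlapped in both, with FDRs of 0.692 and 0.964.

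The lowest and highest levels show the range of the measurement. The 120-base intron of Rbm8a, a protein of the exon junction complex, had 0, 0 and 1 reads beside 1568, 1603 and 1839 spliced reads in cKO and 0 in each Control library, where 3 counts would allow up to 0.14%. Those of Rpl7 and Psmb8 had PSI values of at most 0.04%. At the other end, introns of Rsrp1 and Inpp5d and a 1-base gap in Oaz1 had a PSI of 99.7% to 100% in each library. The gap in Oaz1, the antizyme gene whose translation shifts frame, is no spliced intron by its length, and it is among 9 listed introns under 40 bases, of which 2 open with GT or GC and end with AG. The 37-base example in Hsp90ab1, a cytosolic chaperone, had a PSI between 95.5% and 96.6% in all libraries.

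Beside the introns themselves, components of U5 and tri-snRNPs were measured as a group in the expression table. Of 20 tested genes of a list of 21, 3 were higher and 1, Cd2bp2 itself, was lower at an adjusted p under 0.05, with a median log2 fold change of 0.22, against 0.01 over all tested genes (0.673% of all genes were higher and 0.300% lower at that p). Prpf8, the central scaffold of the U5 snRNP, had a mean of 29022 ± 2785 in cKO and 13442 ± 2184 in Control (SD, n = 3 each), and Snrnp200, its helicase, 40976 ± 4800 and 16937 ± 1312. Prpf3, of the U4/U6 snRNP, had 9837 ± 460 in cKO and 3125 ± 259 in Control. The 32 genes of splice site recognition, SR proteins and CLK kinases had a median log2 fold change of 0.01, with 16 of them above 0, and of the 17 genes of nonsense-mediated decay 9 were above 0.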

How the data were processed

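RNA of sorted CD4+ T cells was sequenced as paired reads from a low-input library kit. The authors trimmed reads with cutadapt and aligned them to GRCm38 with STAR. The sources used here do not give the annotation release. The authors deposited rMATS tables with whole counts of the included and skipped form per event, from junction and exon reads, 3 values per condition without library names. In the deposited expression table each value is a normalized signal, made by the authors from featureCounts counts and DESeq2 size factors, and 1 factor per library returned whole reads within 0.01 reads for every value. Columns of the authors' own comparisons hold differences, fold changes, p-values and FDRs and were not used.

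The first sample of the retention table is Control, since the study defines its difference as Control minus cKO. Differences here are cKO minus Control. Events that averaged 20 reads or more in each condition entered a quasi-binomial regression with dispersions moderated by limma 3.58.1 (R 4.3.3). The prior used events with 5 or more reads on average in the rarer form, with a floor of 1, and Benjamini-Hochberg adjustment over all 2206 tested retention events. Intron positions and sequences came from GENCODE M21 transcripts of GRCm38. All 1149 gene identifiers matched, 1128 in the same version, and 1143 introns had a sequence. Annotated genes averaging 100 or more normalized counts in either condition were tested with limma on log2(value + 1). The whole reads were also tested with edgeR 4.0.16 and DESeq2 1.42.0. Both tests were tested on simulated data. Reads in genes ranged from 69981159 to 82286366 in cKO and from 56995121 to 75606222 in Control. Intervals from counting are not given, and limits from 3 counts cover counting error only.

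Introns named in the text were taken by a rule. It takes every call, the introns of smallest p without overlap of the libraries up to 10 per direction, up to 4 of most reads in each list of host genes, the 3 highest, 3 lowest and 3 shortest, those in host genes called in expression or named by the study, and up to 4 with other ends than GT and AG. The introns, lists and tests were chosen with earlier results of these data known. Alternatives were another minimum of reads, prior, tool, threshold and length normalization, and each library left out. Python 3.11.15 with numpy 2.4.6, pandas 2.3.3 and matplotlib 3.10.9 was used for the summaries.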

Additional observations from a re-analysis of the deposited data

How the results depend on the processing

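The count of 3 called short introns became 0 by edgeR, where 1 short intron had an FDR under 0.05. By edgeR, 78 short introns were higher and 6 lower at an unadjusted p under 0.05. Over all 2206 tested events these counts were 131 and 35. The count of calls became 6 with the prior over all tested events (5 higher and 1 lower), 6 at an FDR under 0.05 and 6 with no minimum difference. With each library left out in turn it ranged from 2 to 4, and with a minimum of 10 reads or none it stayed at 3. The cause of the differences between tools was not tested. Thoc1 was called in each of the 6 fits that leave out a library. The difference in median PSI kept its sign in all alternatives run, from 0.10 to 0.42 points, as did the excess of short over long introns, from 0.10 to 0.28 points. The pooled PSI difference, for which alternatives were chosen after seeing the data, ranged from 0.37 points without the 5 introns of most reads to 1.201 points without cKO replicate 1. Host genes called in expression numbered 3 by edgeR and 10 by DESeq2, and between 2 and 4 with a library left out. No paired analysis was possible because the labels give no replicate numbers that the conditions share. The tested short introns had a median of 11.7 reads of the form with the intron per library, which limits the precision of small differences.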

Other observations

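Of the tested short introns, 17 hold a gene of a small RNA. Of these, 3 were higher and 0 lower at an unadjusted p under 0.05, where 7.16% of all tested events were higher and 1.86% lower. The 3 are in Rpl13, in Ppan and, with 175 bases, in Snhg1. Snhg1, a noncoding host of small nucleolar RNAs, had 12.5%, 6.49% and 3.47% in cKO and 3.90%, 2.11% and 2.25% in Control in an intron of 175 bases, where cKO replicate 3 lay below the highest Control library. Its neighbour of 188 bases had 6.28%, 5.36% and 4.83% in cKO and 1.04%, 2.0% and 4.23% in Control. Gas5, another such host, had 5 tested short introns. The 4 that hold a gene of a small RNA had differences between -0.28 and -0.08 points. That of 123 bases, which holds none, had 10.2%, 11.8% and 12.7% in cKO and 10.5%, 8.54% and 9.20% in Control. All FDRs of these introns were 0.518 or more. Reads of a small RNA within an intron count toward retention, and their part was not tested.

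Phf1, which encodes a protein that works with Polycomb repressive complex 2, had 4 tested short introns, each with a higher mean in cKO. The intron of 131 bases had 14.3%, 16.1% and 14.5% in cKO and 8.82%, 8.22% and 5.42% in Control, and that of 120 bases had 17.6%, 10.96% and 12.5% in cKO and 5.65%, 7.44% and 6.70% in Control, with FDRs of 0.369 and 0.451, and both open at the same base. Cpsf1, a subunit of the complex that cleaves the 3′ end of pre-mRNA, had the most tested short introns of any gene, 7, and their differences ran from -0.84 to 1.30 points with overlap in each. The genes of this section were named after their values were seen.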
